A study of Glycine max with 60 samples.

Results

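The first growth step of the seed in the soybean line 3MWT was measured as RNA of stage 2 seeds (S2) against RNA of stage 1 seeds (S1), with 3 libraries at each stage, so that 6 of the 60 libraries of the series enter the comparison. All genes were tested from the deposited read counts. The series holds 4 lines at 5 stages of seed length, and it asks how mutations that lower phytic acid change gene expression during seed growth. S2 seeds were 4 to 6 mm long and S1 seeds 2 to 4 mm long. Both groups come from 3MWT, a recombinant inbred line with the normal alleles of MIPS1, MRP-L and MRP-N, and no treatment was given. It is the non-mutant sister of 3mlpa, which carries mutations of all 3 genes, while 1mlpa has a mutant MIPS1 only, and 1MWT is the near-isogenic non-mutant line of 1mlpa. Plants of all lines grew in chambers, whole seeds were frozen for RNA, and the 3MWT and 3mlpa libraries were taken over from an earlier study. The sources do not say whether the 3 samples of a stage came from separate plants. The p-values of the fit over 60 libraries rest on the spread between such samples, pooled over the 4 lines and 5 stages. That spread may be technical.

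A legume seed first builds its seed coat and a short-lived endosperm, while the embryo forms its axis and cotyledons by cell division. It then passes into filling, in which the cotyledon cells green, enlarge and store globulins, oil and protease inhibitors. The change is steered in Arabidopsis by the transcription factors LEC1, LEC2, FUS3 and ABI3 with the abscisic acid factor ABI5, while gibberellin, cytokinin and invertases belong to the young, dividing seed.

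The 6 libraries held 19941768 to 38504060 counted reads, within the range of 17359192 to 42800413 over the 60 libraries. Between 43756 and 45000 genes had a read in a library, and the 10 most counted genes took 2.12% to 4.90% of the reads. MIPS1 (Glyma.11G238800), which makes the first intermediate of inositol synthesis and is intact in 3MWT, had 2093, 1756 and 1730 read counts scaled to library size (CPM) in the S2 libraries, against 480, 696 and 499 CPM in the S1 libraries. The phytic acid transporter genes MRP-L (Glyma.19G169000, log2 fold change -0.50, adjusted p = 0.0203) and MRP-N (Glyma.03G167800, log2 fold change -0.40, adjusted p = 0.194) were not called.

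One library stood apart from its group. Over the 3740 called genes, each library was placed on a scale of log2 CPM. The scale ran from the mean of the other libraries of its own stage (0) to the mean of the other stage (1). The 0 points of S1 replicates 1 and 3 thus include S1 replicate 2. S1 replicate 2 lay at a median of 0.470 of the way to S2, with quartiles of 0.288 and 0.633. The other 5 libraries had medians between -0.357 and 0.0631. S1 replicate 2 was the S1 library nearest to S2 in 1670 of 1894 higher genes (88.2%) and in 1600 of 1846 lower genes (86.7%). Its log2 CPM values across genes correlated at 0.968 and 0.956 with S1 replicates 1 and 3, and at 0.959 to 0.967 with the S2 libraries, whereas S1 replicates 1 and 3 correlated at 0.987 with each other (genes are not independent replicates). The cause of its position was not tested. Among 193 named genes called, 52 had a fold change more than 1.5 times larger without this library and 0 more than 1.5 times smaller. Log2 values without a library are printed where a fold change moved by more than 1.5 times.

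**Figure D1:**
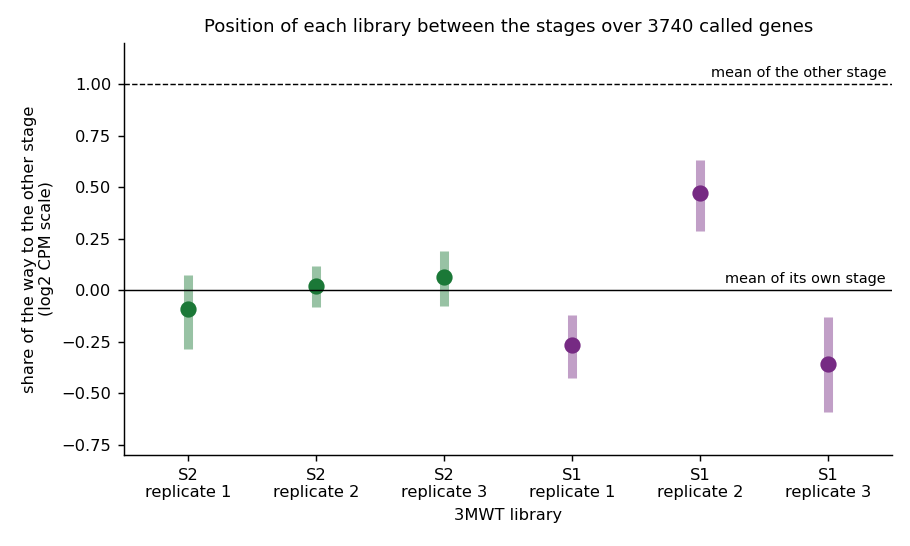
Position of each 3MWT library between the stages, as the share of the way (0 to 1 on the y axis, log2 CPM scale) to the mean of the other stage. The 0 point is the mean of the other libraries of its own stage, without the library placed. Points are medians and bars run from the lower to the upper quartile over 3740 called genes, with S2 libraries in green and S1 libraries in purple. S1 replicate 2 lies at 0.470, and the other 5 libraries lie between -0.357 and 0.0631.

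To find the genes that changed with the step, counts were fitted with edgeR's quasi-likelihood model over all 60 libraries, and calls required a Benjamini-Hochberg adjusted p below 0.01 together with a log2 fold change beyond 1 in either direction. Of 40517 genes tested, 3740 were called (9.23%), 1894 higher at S2 (4.67%) and 1846 lower (4.56%). Genes higher at S2 had a median level of 7.43 CPM at S2 and 2.25 CPM at S1, and the lower genes had 1.55 CPM at S2 and 5.38 CPM at S1. The median size of the log2 fold change was 1.63 among higher genes and 1.67 among lower genes. A log2 fold change beyond 3 was met by 257 higher and 242 lower genes, and beyond 5 by 47 higher and 53 lower genes. The S2 and S1 libraries did not overlap in 1860 of the 1894 higher genes (98.2%) and in 1742 of the 1846 lower genes (94.4%), beside 37.4% of all tested genes, 19.0% in the higher and 18.4% in the lower direction. Over all tested genes the median log2 fold change was -0.02.

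The number of called genes depended on the libraries fitted. The 6 libraries fitted alone called 516 of 36327 genes (1.42%), 236 higher (0.650%) and 280 lower (0.771%). Less S1 replicate 2, the same fit called 4765 of 37037 genes, 2490 higher and 2275 lower, a choice made after the data were seen. It called 9 storage globulins higher and 1 lower, and 16 and 0 oil body genes. For light harvesting these counts were 84 and 1, and for MADS box factors 3 and 31. Counts given below for the 6 libraries alone include S1 replicate 2. Without S1 replicate 2, the 60-library fit called 5016 genes (12.2%), 2777 higher (6.77%) and 2239 lower (5.46%), and 1823 of the 1894 higher and 1733 of the 1846 lower genes were called again.

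Named genes follow a rule given with the methods, except those marked as named after their values were seen. Gene names are those of the best Arabidopsis or protein database match in the deposited tables, so that several soybean genes can carry the same name, and reads of near-identical copies may have been split between them. Strandedness of the counting is not given in the sources used here, so overlapping antisense transcripts cannot be separated. Only 11824 of the tested genes carry such an annotation, nearly all of them genes that the study called in some comparison. Those comparisons included the S2 against S1 step of 3MWT, so membership in a list rests partly on the values tested here. A list therefore does not hold all genes of its pathway or family. Among the 11824 annotated genes 29.4% were called, 14.9% higher and 14.4% lower, and lists of annotated genes are read against these shares. In whole seeds, fewer cells of a tissue and less RNA per cell cannot be told apart.

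The largest changes were ranked among annotated genes called with 60 and with 6 libraries, above an average log2 CPM of 1. Only genes whose S2 and S1 libraries did not overlap were ranked, so their separation follows from the choice. These genes had various roles, from a storage globulin and a cystatin on the higher side to a beta-galactosidase and regulators on the lower side. The sucrose-binding protein gene Glyma.10G028300, a vicilin-like storage globulin, had 2180, 796 and 535 CPM in S2 libraries, against 6.84, 27.5 and 6.99 CPM in S1 libraries. The log2 fold change of Glyma.10G028300 was 6.41 ± 0.86 (SE, adjusted p = 3.19e-07). A GDSL lipase gene (Glyma.15G089000), whose family cleaves lipid esters, held 501, 190 and 196 reads at S2 and 3, 4 and 1 reads at S1, a fitted log2 fold change of 6.63 ± 0.87. The cystatin CYS2 (Glyma.11G253300), of a family that blocks cysteine proteases, held 806, 249 and 337 reads at S2 and 4, 8 and 3 at S1. These S1 levels rest on few reads, and the sizes of the fitted changes follow from them. HSD5 (Glyma.11G015100), a hydroxysteroid dehydrogenase, reached 99.7, 47.1 and 35.9 CPM at S2 against 0.574, 3.55 and 0.687 CPM at S1, a log2 fold change of 5.27 ± 0.67 (adjusted p = 1.08e-07). Glyma.10G028300 had a log2 fold change of 7.43 and Glyma.11G015100 of 6.62 without S1 replicate 2. Without S2 replicate 1 they were 5.63 for Glyma.10G028300, 5.78 for Glyma.15G089000 and 5.46 for Glyma.11G253300.

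On the lower side, Glyma.01G066500 had 0.225, 0.475 and 0.359 CPM at S2, against 18.0, 4.31 and 17.9 CPM at S1, with a log2 fold change of -5.22 ± 0.61 (adjusted p = 2.95e-08). Its Arabidopsis match is an O-fucosyltransferase, while its protein database match is a chloroplastic ATP synthase subunit. RAD-like 1 (Glyma.06G309200), a small MYB-type regulator, fell to 0.638, 0.713 and 0.782 CPM at S2, against 19.4, 6.12 and 24.7 CPM at S1, a log2 change of -4.54 ± 0.55. A homolog with the same Arabidopsis match (Glyma.02G055900) had a log2 fold change of -6.17 ± 0.68, with 1, 7 and 7 reads at S2 and 429, 70 and 423 at S1. MUM2/BGAL6 (Glyma.04G208400), the beta-galactosidase that modifies seed coat mucilage in Arabidopsis, had 1.39, 1.76 and 1.42 CPM at S2, against 27.3, 8.27 and 29.1 CPM at S1 (log2 fold change -3.82 ± 0.42). In each of these lower genes S1 replicate 2 was the S1 library with the lowest value. The other genes of the rule on this side included a 2-S globulin match (Glyma.13G330900, -4.22 ± 0.55), the bHLH93 gene Glyma.02G233300 (-3.96 ± 0.42), an alcohol dehydrogenase family gene (Glyma.19G197000, -3.71 ± 0.53), the MtN21-like transporter gene Glyma.08G182500 (-3.54 ± 0.42) and the ion channel gene CNGC1 (Glyma.03G257000, -3.50 ± 0.35).

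**Figure D2:**
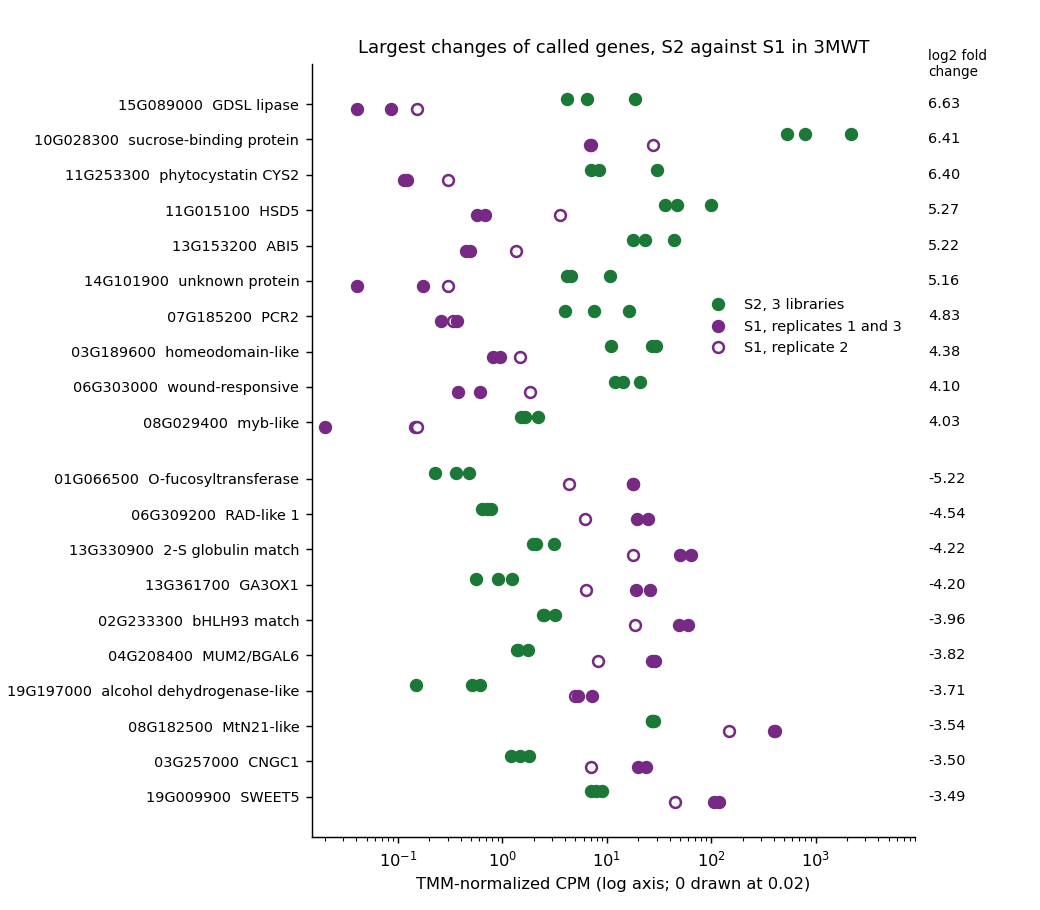
TMM-normalized CPM (log axis, 0 drawn at 0.02) of the 10 genes with the largest change in each direction among annotated genes called both with 60 libraries and with 6 libraries alone, chosen with non-overlapping groups and an average log2 CPM above 1, with S2 in green above S1 in purple and S1 replicate 2 as an open circle. The sucrose-binding protein gene Glyma.10G028300 spans 535 to 2180 CPM at S2 and 6.84 to 27.5 CPM at S1.

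Storage globulins, the vicilins and legumins that fill soybean protein bodies, were mostly higher at S2. Of 21 tested members, 13 were called higher (background 14.9% of annotated genes) and 1 lower, with a median log2 fold change of 4.13, beside -0.04 over all annotated genes. Their summed level was 15405, 3213 and 1989 CPM in the S2 libraries, against 154, 335 and 174 CPM in the S1 libraries. The beta-conglycinin beta subunit gene Glyma.20G146200 had 517, 128 and 87.1 CPM at S2, against 2.21, 6.23 and 2.38 CPM at S1, a log2 fold change of 6.08 ± 0.95 (adjusted p = 3.37e-06). Glyma.20G146200 had a log2 fold change of 6.75 without S1 replicate 2, and without S2 replicate 1 it was 4.93.

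S2 replicate 1 carried much more storage globulin RNA than the other S2 libraries. The alpha prime subunit gene Glyma.10G246300 had 6475, 1628 and 1064 CPM at S2, against 55.1, 142 and 66.3 CPM at S1 (log2 fold change 5.12 ± 0.96, adjusted p = 5.94e-05, and 3.97 without S2 replicate 1). Glycinin G1 (Glyma.03G163500), an 11S legumin, had 4508, 501 and 200 CPM at S2, against 45.5, 87.5 and 52.0 CPM at S1. Both genes were named after their values were seen. The glycinin G1 log2 fold change was 4.82 ± 1.26 (adjusted p = 0.00308), and without S2 replicate 1 it was 2.54 ± 1.14 (adjusted p = 0.110), so the call ended. It also ended without S1 replicate 1 (4.67 ± 1.51, adjusted p = 0.0246) and without S1 replicate 3 (4.74 ± 1.52, adjusted p = 0.0215). The count of higher globulins was 8 without S2 replicate 1, 8 without S1 replicate 1, 12 without S1 replicate 2 and 1 with the 6 libraries alone. S2 replicate 1 was the highest S2 library in 1212 of the 1894 higher genes (64.0%). The lower member was a basic 7S globulin gene (Glyma.13G208000, log2 fold change -1.71 ± 0.41), named after its value was seen.

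Oil body proteins coat the lipid droplets of filling cotyledons. Of 21 tested genes, 13 were called higher and none lower by edgeR, with a median log2 fold change of 3.37. The summed level was 8104, 4228 and 3193 CPM at S2, against 72.5, 464 and 62.4 CPM at S1. The oleosin gene Glyma.19G063400 had 2554, 1467 and 1183 CPM at S2, against 31.4, 198 and 31.6 CPM at S1 (log2 fold change 4.32 ± 0.62, adjusted p = 9.49e-07). Oleosin 1 (Glyma.10G193900) had 733, 344 and 240.5 CPM at S2, against 3.70, 19.8 and 2.42 CPM at S1 (log2 fold change 5.67 ± 0.76). S1 replicate 2 had several times the oleosin level of the other S1 libraries and still lay below every S2 library for both genes. With the 6 libraries alone no oil body gene was called, and without S1 replicate 2 the count was 13 with a median of 4.14. No member was lower without S1 replicate 2 either, but 1 was called lower without S1 replicate 1 or without S1 replicate 3. Glyma.19G063400 had a log2 fold change of 5.81 and Glyma.10G193900 of 7.17 without S1 replicate 2.

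Of 47 genes in the fatty acid synthesis list, 19 were called higher, 2 lower and 26 were not called, with a median log2 fold change of 0.88. FAD2 (Glyma.20G111000), the desaturase that makes linoleic acid, had 656, 388 and 312 CPM at S2, against 5.43, 40 and 2.18 CPM at S1, a log2 fold change of 4.83 ± 0.65 (adjusted p = 3.13e-07). A stearoyl-ACP desaturase gene (Glyma.14G121400), named after its values were seen, had 161, 138 and 136 CPM at S2, against 21.8, 50.4 and 19.0 CPM at S1 (log2 fold change 2.25 ± 0.47). Among the 4 members with the smallest p, 3 were not lipid enzymes but isoflavone malonyltransferases that the word search took in: Glyma.18G258000 (2.44), Glyma.18G268200 (2.83) and Glyma.19G030800 (3.44). WRI1 (Glyma.08G297000), the AP2 factor that activates fatty acid synthesis genes in Arabidopsis, had 3.86, 3.67 and 3.21 CPM at S2, against 0.431, 0.944 and 0.606 CPM at S1 (log2 fold change 2.45 ± 0.36). Glyma.20G111000 had a log2 fold change of 6.89, Glyma.14G121400 of 2.85 and Glyma.18G258000 of 3.04 without S1 replicate 2.

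Late embryogenesis abundant (LEA) and seed maturation proteins, known for protecting the dry seed, were called higher in 27 of 48 genes and lower in 1, with a median of 2.35. Seed maturation protein PM34 (Glyma.20G233000) had 162, 111 and 93.9 CPM at S2, against 3.33, 17 and 2.91 CPM at S1 (log2 fold change 3.98 ± 0.51, adjusted p = 1.12e-07). The vacuolar processing enzyme beta-VPE (Glyma.05G055700), which cleaves storage proteins in Arabidopsis seeds, had 91.8, 77.2 and 79.0 CPM at S2, against 10.1, 29.4 and 8.45 CPM at S1 (2.37 ± 0.30). The list held 30 higher and 2 lower genes without S1 replicate 2. The log2 values were then 5.31 for Glyma.20G233000 and 3.18 for Glyma.05G055700.

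Protease inhibitors divided by size of change more than by number. Of 57 genes, 12 were called higher and 4 lower, and the median was 0.19, yet the summed level was 10964, 5192 and 3926 CPM at S2, against 846, 1078 and 806 CPM at S1. The Kunitz trypsin inhibitor gene Glyma.08G341500 (KTI1), whose protein limits the digestibility of raw soybeans, had 5789, 2886 and 2206 CPM at S2, against 93.9, 390 and 61.6 CPM at S1 (log2 fold change 4.32 ± 0.60, adjusted p = 5.43e-07). Another Kunitz inhibitor gene, Glyma.08G341000, named after its values were seen, had 2484, 1113 and 739 CPM at S2, against 19.3, 105 and 8.20 CPM at S1 (5.03 ± 0.78). Per length, the seed-specific sulfur-rich protein gene Glyma.06G160300 (PDF2.5) ranked first of all genes at S2, with 3124, 2738 and 2251 RPKM (reads scaled to gene length and library size) at S2 and 216, 1047 and 172 RPKM at S1. Leginsulin 1 (Glyma.13G194400), a small cysteine-rich albumin, had 1851, 965 and 815 RPKM at S2, against 59.6, 234 and 47.3 RPKM at S1. The log2 fold changes were 2.59 ± 0.39 and 3.51 ± 0.75, and both genes were named after their values were seen. Glyma.08G341500 had a log2 fold change of 5.57, Glyma.08G341000 of 6.73, Glyma.06G160300 of 3.82 and Glyma.13G194400 of 4.53 without S1 replicate 2, and without S2 replicate 1 that of Glyma.08G341000 was 4.43. The 4 lower calls were 1 without S1 replicate 1, and 2 without S1 replicate 3 or S2 replicate 3.

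The regulators of embryo maturation were called higher in 16 of 27 genes and lower in 3, with a median of 1.15. ABI5 (Glyma.13G153200), the bZIP factor of abscisic acid response, had 43.8, 23.4 and 17.8 CPM at S2, against 0.488, 1.36 and 0.445 CPM at S1, a log2 fold change of 5.22 ± 0.65 (adjusted p = 7.92e-08). A further ABI5 gene (Glyma.10G071700) had a log2 fold change of 3.23 ± 0.49. The ABI3 genes Glyma.08G357600 (1.83 ± 0.23) and Glyma.18G176100 (1.77 ± 0.22) changed less but from higher levels. Glyma.08G357600 had 239, 231 and 229 CPM at S2, against 46.6, 110 and 40.6 CPM at S1, so that the 3 S2 libraries lay close together and S1 replicate 2 lay between them and the other S1 libraries. Glyma.13G153200 had a log2 fold change of 5.92, Glyma.08G357600 of 2.44 and Glyma.18G176100 of 2.39 without S1 replicate 2.

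LEC1-type, FUS3 and LEC2 genes did not move alike. The LEC1-type genes Glyma.17G005600 and Glyma.07G268100 had log2 fold changes of 1.62 ± 0.24 and 1.4 ± 0.23, and Glyma.17G005600 had 220, 232 and 241 CPM at S2, against 46.1, 138 and 41.1 CPM at S1. FUS3 changed least, with 1.23 ± 0.20 at Glyma.16G050300 and 1.01 ± 0.18 at Glyma.19G100900. The FUS3 call of Glyma.16G050300 ended without S1 replicate 3 (0.98 ± 0.20), and that of Glyma.19G100900 ended without S1 replicate 1 (0.84 ± 0.19), S1 replicate 3 (0.84 ± 0.19) or S2 replicate 3 (1.00 ± 0.20). Glyma.17G005600 had a log2 fold change of 2.43, Glyma.07G268100 of 2.14 and Glyma.16G050300 of 1.92 without S1 replicate 2. Both LEC2 genes were called lower: Glyma.20G035800 had 0, 0 and 0 reads at S2 and 14, 3 and 10 reads at S1, and Glyma.20G035700 had 0, 0 and 3 reads at S2 and 27, 6 and 8 reads at S1. The third lower member was a low LEC1-type gene, Glyma.02G087200 (0.0958 CPM at S2 and 0.613 CPM at S1 on average). Apart from the ABI3 and ABI5 genes, the genes of this paragraph were named after their values were seen.

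Annotated genes of light harvesting and the photosystems were called higher in 83 of 99, and none was called lower by edgeR, with a median of 1.43. The S2 and S1 libraries did not overlap in 88 members on the higher side, beside 19.0% of all tested genes. The summed level was 6819, 5307 and 5069 CPM at S2, against 1721, 2955 and 1597 CPM at S1. LHCB6 (Glyma.15G052400), an antenna protein of photosystem II, had 69.7, 59.1 and 60.6 CPM at S2, against 18.3, 30.6 and 16.4 CPM at S1 (log2 fold change 1.53 ± 0.17, adjusted p = 1.71e-08). The oxygen-evolving subunit PSBO2 (Glyma.01G180800, 1.56 ± 0.19), the photosystem I antenna LHCA2 (Glyma.07G047600, 1.57 ± 0.18) and the photosystem I subunit PSAK (Glyma.15G194300, 1.69 ± 0.20) changed by similar amounts. LHCB3 (Glyma.13G282000), named after its values were seen, had 232, 163 and 151 CPM at S2, against 33.7, 75.3 and 30.1 CPM at S1 (1.97 ± 0.26). Without S1 replicate 2, 84 members were higher with a median of 1.83, and the 6 libraries alone called 11.

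All 8 annotated genes of chlorophyll synthesis were called higher, with a median of 1.26. The protochlorophyllide reductase gene PORA (Glyma.06G247100) had 105, 74.8 and 58.3 CPM at S2, against 19.7, 23.9 and 20.7 CPM at S1 (log2 fold change 1.89 ± 0.33, adjusted p = 1.69e-05). The magnesium chelatase subunit gene CHLH (Glyma.19G139300) had 36.6, 34.1 and 35.7 CPM at S2, against 16.3, 17.2 and 16.9 CPM at S1 (1.08 ± 0.15). Here S1 replicate 2 lay close to the other S1 libraries. Without S2 replicate 1 the count was 5 of 8, and with the 6 libraries alone it was 4.

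In the Calvin cycle and photorespiration list, 11 of 30 genes were higher and 2 lower, with a median of 0.74. Phosphoribulokinase (Glyma.09G210900), which regenerates the carbon dioxide acceptor, had 26.6, 17.9 and 16.3 CPM at S2, against 6.61, 6.38 and 5.33 CPM at S1 (1.72 ± 0.22). A serine hydroxymethyltransferase gene matched to SHM1 (Glyma.09G202000) went the other way, with 2.21, 1.60 and 2.14 CPM at S2, against 244, 20.3 and 368 CPM at S1. Its log2 fold change of -6.73 ± 0.63 (adjusted p = 4.52e-10) was larger in size than that of any gene named above, and S1 replicate 2 lay nearer to S2 than the other S1 libraries. Without S1 replicate 3 its value was -6.03. Nuclear copies of genes that chloroplasts or mitochondria encode had a median of 0.64 and no called gene among 131 by edgeR.

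**Figure D3:**
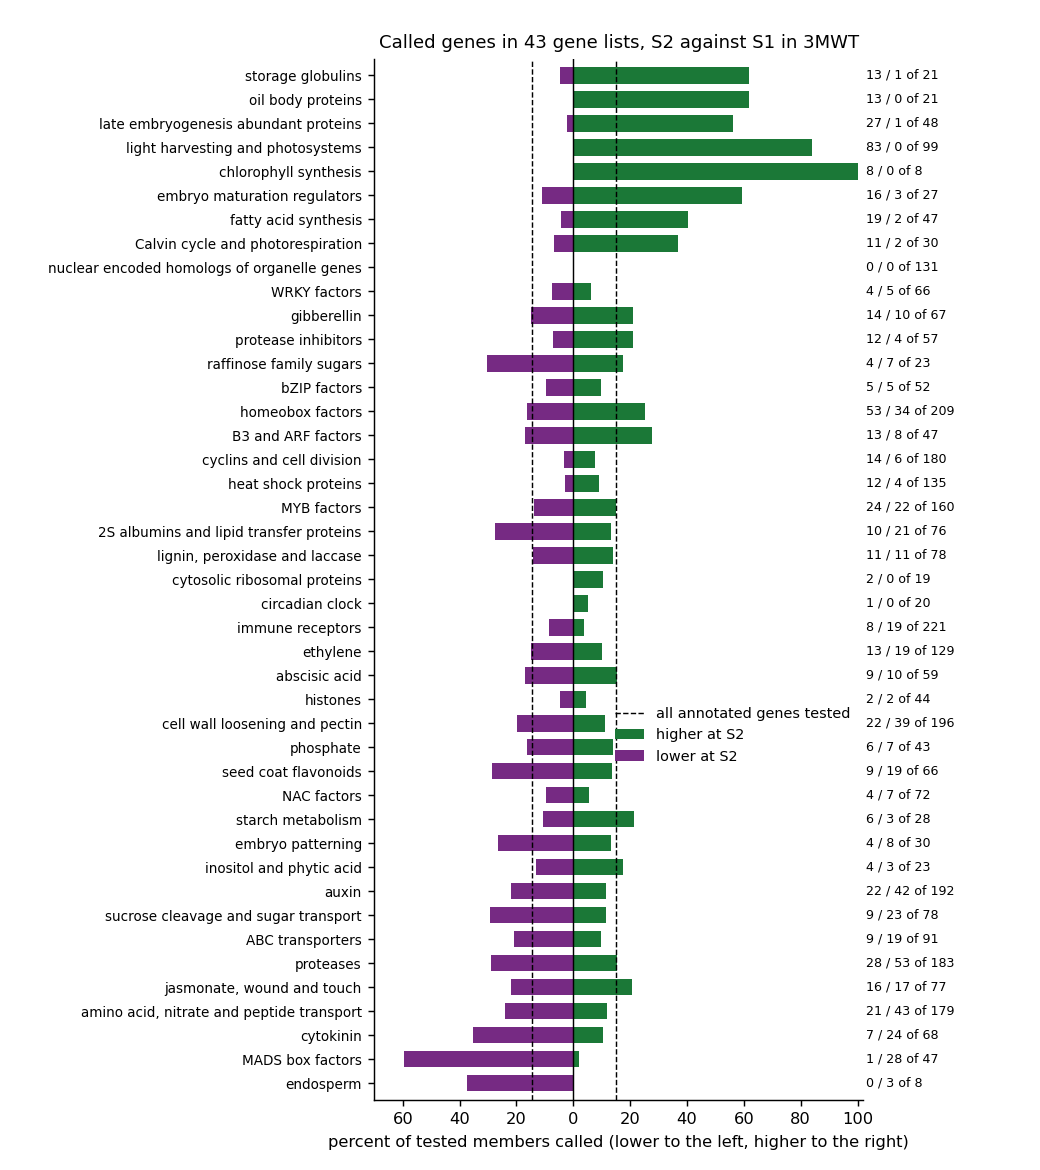
Percent of tested members called higher at S2 (green, to the right) and lower at S2 (purple, to the left) in 43 gene lists, ordered by median log2 fold change, with the counts at the right and dashed lines at the shares of all annotated genes, 14.9% higher and 14.4% lower. Chlorophyll synthesis (8 of 8) and light harvesting (83 of 99) reach furthest to the right, and MADS box factors (28 of 47) furthest to the left.

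MADS box factors, the family that sets floral organ and ovule identity, were called lower in 28 of 47 genes (background 14.4% of annotated genes) and higher in 1, with a median of -1.10. Their summed level was 986, 936 and 827 CPM at S2, against 2130, 1406 and 2233 CPM at S1. The AGAMOUS-type gene Glyma.15G088600 had 11.4, 10.8 and 8.63 CPM at S2, against 55.1, 25.3 and 58.0 CPM at S1, a log2 fold change of -2.17 ± 0.19 (adjusted p = 3.06e-10). The ovule identity gene STK (Glyma.06G324400) had 273, 272 and 220 CPM at S2, against 639, 400 and 600 CPM at S1 (-1.10 ± 0.16, adjusted p = 1.08e-06). The median of the list lay close to the threshold of 1, and the call of STK ended without S1 replicate 1 (-0.95 ± 0.17) or S2 replicate 3 (-0.98 ± 0.18), and also without S1 replicate 3.

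The SEPALLATA genes, partners of these factors, were lower as well, with -1.45 ± 0.18 at Glyma.08G250700 and -1.14 ± 0.13 at Glyma.13G052700, whose call ended without S1 replicate 3 (-0.96 ± 0.14). The SHATTERPROOF gene Glyma.14G027300 (SHP2) had 18.7, 21.1 and 19.2 CPM at S2, against 47.8, 36.3 and 49.5 CPM at S1 (-1.18 ± 0.14). The member called higher was AGL15 (Glyma.U018000, 1.15 ± 0.20), an embryo factor in Arabidopsis, named after its value was seen. The count of lower MADS box genes was 17 without S1 replicate 1, 16 without S1 replicate 3, 18 without S2 replicate 3, 30 without S1 replicate 2 and 6 with the 6 libraries alone.

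Among 8 endosperm genes, 3 were called lower (background 14.4% of annotated genes) and none higher by edgeR. S2 and S1 libraries did not overlap in those 3, beside 94.4% of all lower calls. AGL62 (Glyma.20G136600), which keeps the Arabidopsis endosperm dividing as a syncytium, held 1, 3 and 3 reads at S2 and 159, 22 and 147 reads at S1. ALE1 (Glyma.07G263500), a subtilase of the endosperm that shapes the embryo surface in Arabidopsis, had 8.18, 8.86 and 13.2 CPM at S2, against 44.1, 25.6 and 33.6 CPM at S1 (-1.77 ± 0.36, adjusted p = 1.62e-04). ZOU (Glyma.02G103200), the factor of endosperm breakdown, had a log2 fold change of -1.48 ± 0.43 (adjusted p = 0.00729), and its call ended when S1 replicate 1 or 3 or any S2 replicate was left out (adjusted p between 0.0178 and 0.0600). The ENDOSPERM DEFECTIVE 1 genes Glyma.09G018100 (0.16 ± 0.18) and Glyma.15G124000 (0.32 ± 0.19), named after their values were seen, were not called.

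Embryo patterning genes were called lower in 8 of 30 and higher in 4. The root stem cell factor PLT2 (Glyma.03G140800) held 1, 0 and 1 reads at S2 and 38, 10 and 15 reads at S1. WOX9 (Glyma.11G210800), a homeobox factor of the early embryo, had 2.03, 2.10 and 2.26 CPM at S2, against 5.69, 5.97 and 7.52 CPM at S1 (-1.58 ± 0.30), with all S1 libraries close together. SCARECROW (Glyma.18G220100), which patterns the ground tissue, had 22.2, 24.0 and 26.0 CPM at S2, against 6.58, 16.8 and 6.79 CPM at S1 (1.26 ± 0.19). Glyma.18G220100 had a log2 fold change of 1.87 without S1 replicate 2.

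Sucrose cleavage and sugar transport genes were called lower in 23 of 78 and higher in 9, with a median of -0.39. The cell wall invertase gene cwINV4 (Glyma.20G029100), whose enzyme splits sucrose arriving from the seed coat, had 0.225, 0.238 and 0.423 CPM at S2, against 18.1, 3.32 and 35.8 CPM at S1 (log2 fold change -5.92 ± 0.69, adjusted p = 3.19e-08, and -5.07 without S1 replicate 3). The sugar exporter SWEET5 (Glyma.19G009900) had 7.13, 7.91 and 9.01 CPM at S2, against 119, 45.2 and 107 CPM at S1 (-3.49 ± 0.44). Sucrose synthase SUS4 (Glyma.17G045800) and the exporter SWEET15 (Glyma.15G049200), both named after their values were seen, went up instead. SUS4 had 593, 559 and 508 CPM at S2, against 154, 278 and 138 CPM at S1 (1.54 ± 0.23), and SWEET15 had 102, 76.4 and 77.5 CPM at S2, against 22.8, 27.0 and 10.2 CPM at S1 (2.09 ± 0.29).

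Cytokinin genes were lower in 24 of 68 and higher in 7, with a median of -0.61. Cytokinin oxidase CKX3 (Glyma.17G054500), which degrades the hormone, had 1.58, 4.17 and 3.13 CPM at S2, against 51.9, 11.1 and 66 CPM at S1 (-3.85 ± 0.45, adjusted p = 3.19e-08). LOG1 (Glyma.13G324700), which releases the active hormone, had 0.525, 0.373 and 0.169 CPM at S2, against 3.02, 2.34 and 4.69 CPM at S1 (-3.29 ± 0.43). The type-A response regulator genes matched to ARR9, which the hormone induces, were Glyma.04G247800 (-2.42 ± 0.32) and Glyma.06G114900 (-2.95 ± 0.41), named after their values were seen. The cytokinin response factor gene CRF4 (Glyma.14G205600) went up, with 21.2, 18.2 and 22.1 CPM at S2, against 2.93, 8.46 and 3.60 CPM at S1. Its log2 fold change was 2.05 ± 0.26 (adjusted p = 1.07e-07), and 2.68 without S1 replicate 2. Synthesis, breakdown and response genes thus all included lower members, and the response genes also a higher member. The count of lower genes was 15 without S1 replicate 1, 16 without S1 replicate 3, 22 without S1 replicate 2 and 4 with the 6 libraries alone, and that of higher genes was 4 without S1 replicate 1 or without S2 replicate 1.

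Gibberellin genes were called higher in 14 of 67 and lower in 10, beside 14.9% and 14.4% of annotated genes, so the lower share lay near the background. The gene GA3OX1 makes the bioactive hormone, and its copy Glyma.13G361700 had 0.563, 0.916 and 1.23 CPM at S2, against 19.1, 6.27 and 26.2 CPM at S1 (-4.20 ± 0.52, adjusted p = 6.51e-08). Another copy, Glyma.04G071000, had 7.88, 5.84 and 6.43 CPM at S2, against 0.402, 2.12 and 0.445 CPM at S1 (2.80 ± 0.40, adjusted p = 7.08e-07). Of the preceding enzyme, GA 20-oxidase, GA20OX3 (Glyma.06G155000) held 5, 5 and 4 reads at S2 and 158, 27 and 132 at S1, while GA20OX2 (Glyma.07G081700), named after its values were seen, had 148, 134 and 120 CPM at S2, against 12.5, 49.4 and 8.69 CPM at S1 (2.51 ± 0.39). Glyma.04G071000 had a log2 fold change of 4.00 and Glyma.07G081700 of 3.68 without S1 replicate 2.

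Opposite changes of genes with the same or a related Arabidopsis match were seen elsewhere too. Of 509 Arabidopsis matches with exactly 2 called soybean genes, both genes moved in the same direction in 412 and in opposite directions in 97. The large subunit of ADP-glucose pyrophosphorylase, which feeds starch synthesis, was higher at Glyma.06G011700 (APL3, 1.25 ± 0.21) and lower at Glyma.12G042400 (APL3, -1.63 ± 0.29). Glyma.06G011700 had 85.1, 83.6 and 79.8 CPM at S2, against 33, 38.1 and 33.2 CPM at S1, and Glyma.12G042400 had 4.54, 4.04 and 4.19 CPM at S2, against 14.8, 10.4 and 14.4 CPM at S1. The mitochondrial aldehyde dehydrogenase ALDH2B4 was higher at Glyma.06G183900 (3.12 ± 0.40) and lower at Glyma.17G091000 (-1.61 ± 0.24). Among related genes with different Arabidopsis matches, MIPS1 (Glyma.11G238800) had a log2 fold change of 1.74 ± 0.26. The inositol phosphate synthase gene matched to MIPS3 (Glyma.05G180600) had 87.1, 72.4 and 82.8 CPM at S2, against 487, 205 and 575 CPM at S1 (-2.39 ± 0.38). Without S1 replicate 2, 613 matches had exactly 2 called genes, of which 496 moved together and 117 in opposite directions.

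Proteases were called lower in 53 of 183 genes and higher in 28. Their summed level was 9490, 6419 and 6809 CPM at S2, against 18141, 7017 and 21414 CPM at S1, so that S1 replicate 2 lay among the S2 libraries. The subtilase genes matched to AIR3, Glyma.05G152200 (-2.83 ± 0.30) and Glyma.14G048200 (-3.29 ± 0.38), were among the clearest, and Glyma.14G048200 had 11.5, 11.3 and 13 CPM at S2, against 126, 41.0 and 185 CPM at S1. A papain-type cysteine proteinase gene (Glyma.10G207100), named after its values were seen, had 805, 459 and 389 CPM at S2, against 28.4, 110 and 23.0 CPM at S1 (3.36 ± 0.45). Glyma.10G207100 had a log2 fold change of 4.44 without S1 replicate 2.

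Of the 15 genes with the highest mean RPKM at S1, 9 were called lower at S2 and 6 were not called, among them a subtilisin-type protease gene (Glyma.06G022600, -0.83, adjusted p = 0.178) and a gene higher in value at S2 (Glyma.02G281400, 0.82, adjusted p = 0.00525). By RPKM, the seed coat BURP domain protein gene Glyma.07G176700 ranked first at S1, with 1157, 937 and 997 RPKM at S2, against 7650, 2205 and 8377 RPKM at S1 (log2 fold change -2.55 ± 0.40, adjusted p = 3.37e-06). The xylanase A gene Glyma.10G257000, of a family that cuts cell wall xylan, had 58.7, 72.4 and 82.7 RPKM at S2, against 1354, 305 and 1908 RPKM at S1 (-4.06 ± 0.56, and -3.47 without S1 replicate 3). The arabinofuranosidase gene Glyma.19G124600 had 147, 164 and 163 RPKM at S2, against 1402, 545 and 1868 RPKM at S1 (-3.0 ± 0.51), and serine carboxypeptidase scpl40 (Glyma.09G226700) had 221, 185 and 211 RPKM at S2, against 1510, 407 and 1953 RPKM at S1 (-2.64 ± 0.44). The genes of this paragraph were named after their values were seen, and in the 4 lower ones S1 replicate 2 had less than the other S1 libraries and more than any S2 library.

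Wound and jasmonate genes moved both ways, with 16 of 77 higher and 17 lower, beside 14.9% and 14.4% of annotated genes. The wound-responsive family gene Glyma.06G303000 had 21, 12.0 and 14.3 CPM at S2, against 0.373, 1.85 and 0.606 CPM at S1 (4.10 ± 0.29), and its adjusted p of 1.11e-13 was the smallest among the named genes. Its neighbours by number, Glyma.06G302900 (4.21 ± 0.40) and Glyma.06G299000 (3.20 ± 0.32), were higher too. The lipoxygenase genes named here, of a family that starts oxylipin synthesis, were lower, and other lipoxygenase genes were not counted. LOX2 (Glyma.11G130200) had 9.87, 10.1 and 11.8 CPM at S2, against 78.8, 24.4 and 103 CPM at S1 (-2.69 ± 0.33). LOX1 (Glyma.15G026400), named after its values were seen, had 219, 281 and 331 CPM at S2, against 1729, 632 and 2170 CPM at S1 (-2.45 ± 0.39). Glyma.06G303000 had a log2 fold change of 5.06, Glyma.06G302900 of 5.58 and Glyma.06G299000 of 3.96 without S1 replicate 2.

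Seed coat flavonoid genes were lower in 19 of 66 and higher in 9, and the lower calls were 9 without S1 replicate 1, 11 without S1 replicate 3, and 10 without S2 replicate 2 or S2 replicate 3. The zinc finger gene TT1 (Glyma.13G090000), a seed coat regulator in Arabidopsis, had 4.73, 5.29 and 3.55 CPM at S2, against 23.9, 12.8 and 19.4 CPM at S1 (-2.06 ± 0.30). A dihydroflavonol reductase gene (Glyma.11G164700) had 163, 153 and 139 CPM at S2, against 20.9, 49.1 and 16.4 CPM at S1 (2.39 ± 0.27, and 3.04 without S1 replicate 2). Lists of general cell functions showed few calls, with 14 higher and 6 lower of 180 cyclin and cell division genes (8 and 3 without S1 replicate 1), 2 and 2 of 44 histone matches, 2 and 0 of 19 cytosolic ribosomal protein genes and 1 and 0 of 20 clock genes. Of the 4 called histone matches, 3 were aldehyde dehydrogenases whose symbol holds the searched letters, and only Glyma.12G082700 is a histone H2B (3.56 ± 0.72). The higher calls of the cyclin and cell division list included the CDC48 ATPase genes Glyma.04G186000 (4.49 ± 0.63) and Glyma.06G180000 (3.60 ± 0.54), which are not cyclins. The ribosomal list held a gene with the Arabidopsis match VRN1, a B3 factor (Glyma.13G058500, not called).

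To place the step in the course of the seed, the levels of 12 genes were followed over all 15 libraries of 3MWT. Later stages are set beside S2 as values, without a test. The beta-conglycinin gene Glyma.20G146200 averaged 3.61, 244, 1936, 3334 and 4932 CPM from S1 to S5, and the oleosin gene Glyma.04G077600 averaged 22.7, 934, 3765, 5293 and 6489 CPM. These genes kept higher means at each later stage. The LEC1-type gene Glyma.17G005600 averaged 75, 231, 268, 261 and 230 CPM, close to a plateau by S2. Cell wall invertase Glyma.20G029100 averaged 19.1, 0.295, 0.25, 0.370 and 0.133 CPM, and AGAMOUS Glyma.15G088600 averaged 46.1, 10.3, 11.6, 15.7 and 14.4 CPM. Cytokinin oxidase Glyma.17G054500 averaged 43, 2.96, 1.14, 1.27 and 0.845 CPM, lower again after S2. AGL62 (Glyma.20G136600) had no read in 7 of the 9 libraries from S3 to S5.

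**Figure D4:**
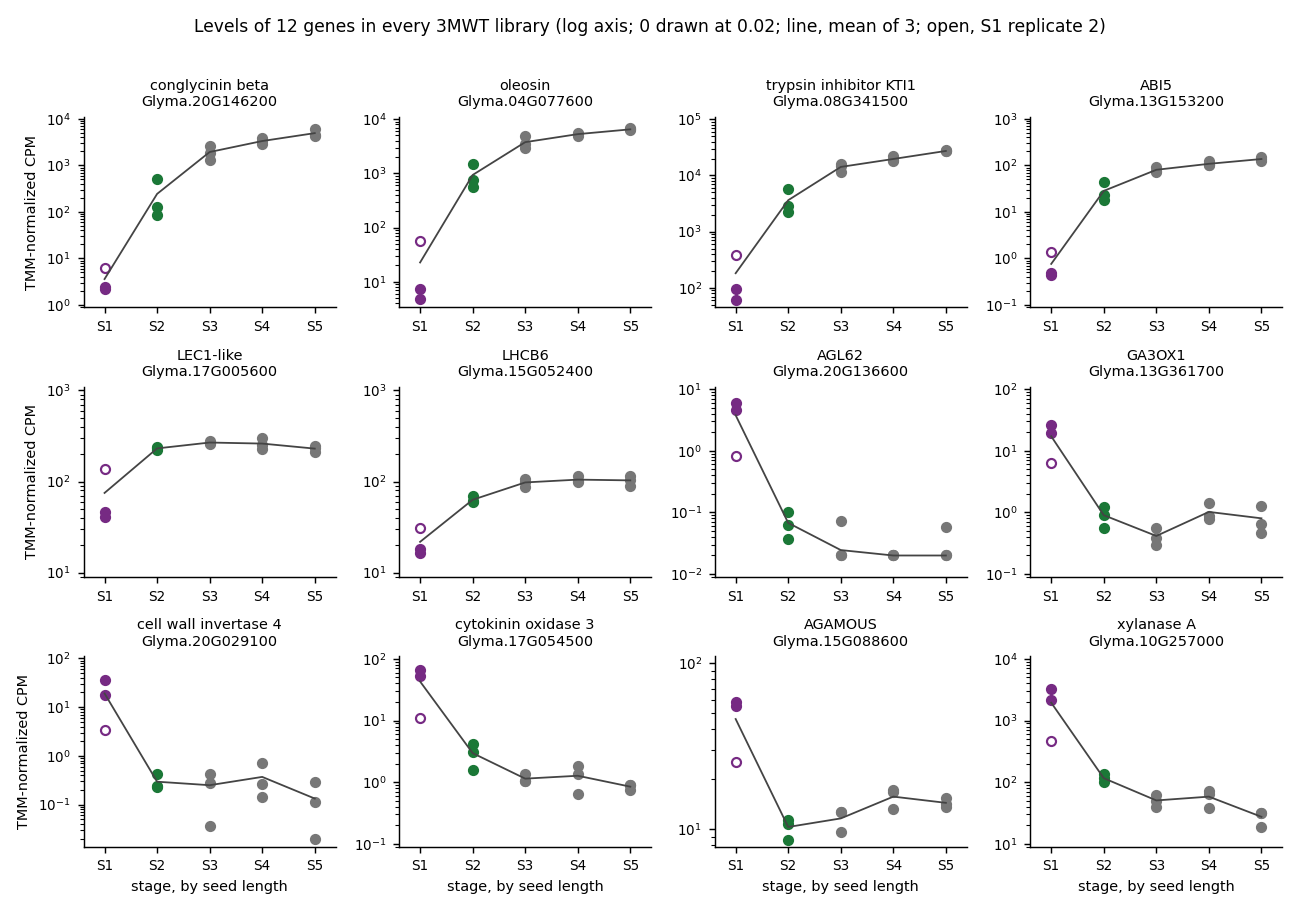
TMM-normalized CPM (log axes, 0 drawn at 0.02) of 12 genes in the 15 libraries of 3MWT from S1 to S5, with points for libraries (S1 replicate 2 open) and a line through the stage means. Storage, oil and inhibitor genes kept higher means after S2, as Glyma.20G146200 with 244 CPM at S2 and 4932 CPM at S5, while the AGL62, GA3OX1, invertase, cytokinin oxidase, AGAMOUS and xylanase genes had lower means at every later stage than at S1, with xylanase Glyma.10G257000 at 116 CPM at S2 and 27.4 CPM at S5.

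The same step was fitted in the other lines, whose S2 and S1 libraries are not shared with 3MWT. The fit called 1856 genes in 3mlpa (4.58%, with 3.30% higher and 1.28% lower). It called 3467 genes in 1mlpa (8.56%, with 4.77% higher and 3.79% lower). In 1MWT it called 706 genes (1.74%, with 1.37% higher and 0.370% lower). Of the 1894 genes higher in 3MWT, 1362 were also higher in 1mlpa (71.9% of the 3MWT calls and 70.5% of the 1mlpa calls). With 3mlpa the shared higher calls were 1041 (55.0% of the 3MWT and 77.7% of the 3mlpa calls), and with 1MWT they were 474 (25% of the 3MWT and 85.3% of the 1MWT calls). Of the 1846 lower genes, 1032 were shared with 1mlpa (55.9% of the 3MWT and 67.2% of the 1mlpa calls), 352 with 3mlpa (19.1% of the 3MWT and 68.1% of the 3mlpa calls) and 89 with 1MWT (4.82% of the 3MWT and 59.3% of the 1MWT calls). No gene called in 3MWT was called in the opposite direction in another line by edgeR, and 94.9% to 98.6% of the 3MWT calls had the same sign there, beside 48.0% to 51.8% of all tested genes with that sign. All 4 lines shared 412 higher and 65 lower calls. The median step of the 3MWT calls was smaller elsewhere: for the lower genes it was -1.67 in 3MWT, -1.29 in 1mlpa, -0.82 in 3mlpa and -0.68 in 1MWT. The genes were chosen by their 3MWT values, which makes their 3MWT median larger by choice.

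A total of 1167 genes were called in 3MWT alone, 406 higher and 761 lower, but a call in 1 line and not in another does not show a difference. The difference itself was tested as an interaction of line and stage. Against the mean of the other 3 lines, 7 genes were called (0.0173%), 3 with a higher (0.00740%) and 4 with a lower step in 3MWT (0.00987%), while 4952 genes had an unadjusted p under 0.05. Against 3mlpa alone, 1 gene was called (0.00247%), with 4749 genes at an unadjusted p under 0.05. The counts were 532 (1.30%) and 471 (1.15%) without S1 replicate 2 of 3MWT. The lists that led the step in 3MWT held no called interaction in the 60-library fit, with lowest adjusted p of 0.194 among storage globulins, 0.251 among oil body proteins and 0.156 among light harvesting genes. The exception was the MADS box list, through AGAMOUS. Without S1 replicate 2 the test against the mean of the other lines called 17 protease, 7 maturation regulator, 6 MADS box, 6 light harvesting and 6 cytokinin genes, and edgeR called none among storage globulins or oil body proteins. The test against 3mlpa then called 1 oil body gene.

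AGAMOUS (Glyma.15G088600) was the gene called in both tests. Its S2 and S1 values in 3MWT were given above, while in 3mlpa it had 29.2, 35.4 and 29.1 CPM at S2, against 38.4, 35.1 and 37.6 CPM at S1. The log2 step was -2.17 in 3MWT, -0.25 in 3mlpa, -1.14 in 1mlpa and -0.23 in 1MWT, a difference of -1.63 ± 0.22 from the mean of the other lines (adjusted p = 7.53e-05) and of -1.93 from 3mlpa. It was called in each fit that left out 1 of the 6 libraries, with differences between -1.43 and -1.93. Its adjusted p was 0.0192 when the S1 and S2 libraries of the 4 lines were fitted alone, above the threshold.

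A remorin gene (Glyma.09G139200), of a family of membrane-associated proteins, had 3.08, 2.85 and 2.56 CPM at S2, against 11.9, 7.90 and 10.3 CPM at S1 in 3MWT. The S1 level was shared by both stages of 1MWT, with 9.14, 10.5 and 7.67 CPM at S2 and 7.31, 7.30 and 12.5 CPM at S1. Among the genes with a higher step, the ORG1-matched gene Glyma.04G236600 had 53.3, 35.8 and 22.7 CPM at S2, against 4.51, 9.33 and 2.79 CPM at S1 in 3MWT, and 8.51, 6.78 and 15.1 CPM at S2, against 8.01, 11.1 and 10.4 CPM at S1 in 3mlpa. Glyma.06G127700, with the same match, had 60.4, 46.2 and 35.9 CPM at S2, against 10.9, 17.2 and 7.31 CPM at S1 in 3MWT. Both ORG1 genes thus reached their high level only in the S2 libraries of 3MWT among the 24 libraries compared. Without S1 replicate 2 the step of Glyma.04G236600 in 3MWT was 3.35.

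**Figure D5:**
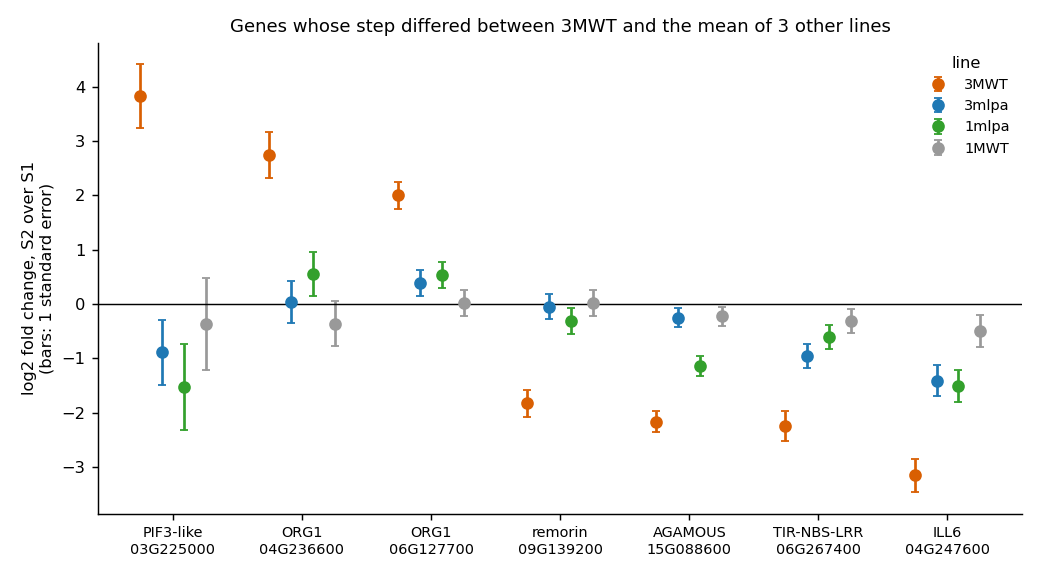
Log2 fold change of S2 over S1 (y axis) with 1 standard error in 3MWT (orange), 3mlpa (blue), 1mlpa (green) and 1MWT (grey) for the 7 genes whose step differed between 3MWT and the mean of the other lines. PIF3-like Glyma.03G225000 stands at 3.83 in 3MWT and at -0.89, -1.53 and -0.37 in 3mlpa, 1mlpa and 1MWT, and AGAMOUS Glyma.15G088600 stands at -2.17 in 3MWT and at -0.25, -1.14 and -0.23 in these lines.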

How the data were processed

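RNA from whole seeds was sequenced as single reads of 100 bases. Per the study's methods and the submitters' notes, the authors aligned reads to the Williams 82 soybean assembly with STAR 2.4.2, counted them per gene with featureCounts 1.4.6 and compared groups with DESeq2 1.8.2 in R 3.2.4. The deposited table holds raw read counts for 56044 genes in 60 libraries, and the RPKM values were also made by the authors. Deposited fold changes and p-values of the authors' own comparisons were not used, and only the gene annotation was taken from those tables.

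Here the counts were fitted with edgeR 4.0.16 (TMM factors, filterByExpr, quasi-likelihood, 20 group means, 40 residual degrees of freedom) in R 4.3.3, and 40517 genes passed the filter. CPM are TMM-normalized, and SE is the log2 fold change divided by the square root of its F value. Calls needed a Benjamini-Hochberg adjusted p below 0.01 and a log2 fold change beyond 1 in either direction. Alternatives used limma 3.58.1, DESeq2 1.42.0, other sets of libraries, and each replicate left out. Scripts were tested on simulated data.

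Named genes were the 10 largest changes per direction among annotated genes called with 60 and with 6 libraries, non-overlapping and above an average log2 CPM of 1; up to 4 members of each of 43 lists by adjusted p; the MIPS1, MRP-L and MRP-N genes; and interaction genes. Further genes, marked in the text, were named after their values were seen, and such genes enter the counts of named genes. Members and lists were chosen with earlier results of these data known, and lists were drawn by symbol or word from the annotation. Tables and plots were made with Python 3.11.15, numpy 2.4.6, pandas 2.3.3 and matplotlib 3.10.9.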

Additional observations from a re-analysis of the deposited data

Results flagged for a closer look

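For 7 genes the S2 against S1 step in 3MWT differed from the mean step of 3mlpa, 1mlpa and 1MWT by edgeR's interaction test, and for 1 of them also from the 3mlpa step. Their calls depended on single 3MWT libraries. All 7 were called again without S1 replicate 2, while 6 were lost without S1 replicate 1 or S2 replicate 1, 5 without S1 replicate 3 or S2 replicate 2, and 3 without S2 replicate 3. With the S1 and S2 libraries of the 4 lines alone all 7 were lost. The differences below are log2 values, 3MWT minus the other lines.

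The difference was 4.76 ± 0.75 (adjusted p = 0.00188) for Glyma.03G225000, a bHLH gene matched to PIF3, which held 74, 34 and 19 reads at S2 and 2, 2 and 4 reads at S1 in 3MWT. Without S2 replicate 1 the difference of Glyma.03G225000 was 3.87 (adjusted p = 0.0105 by the same test). The ORG1 matches Glyma.04G236600 and Glyma.06G127700 differed by 2.67 ± 0.47 (adjusted p = 0.00643) and 1.69 ± 0.28 (adjusted p = 0.00258). ILL6 (Glyma.04G247600), of a family that releases conjugated auxin or jasmonate, had 1.46, 1.12 and 1.54 CPM at S2, against 15.3, 5.4 and 16.4 CPM at S1 in 3MWT, and differed by -2.02 ± 0.35 (adjusted p = 0.00375). The TIR-NBS-LRR immune receptor gene Glyma.06G267400 differed by -1.62 ± 0.29 (adjusted p = 0.00814), the remorin gene Glyma.09G139200 by -1.72 ± 0.29 (adjusted p = 0.00258), and AGAMOUS (Glyma.15G088600) by -1.63 ± 0.22 (adjusted p = 7.53e-05) from the mean of the other lines and by -1.93 from 3mlpa.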

How the results depend on the processing

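The count of 3740 called genes was 516 with the 6 libraries alone, and 4765 with these less S1 replicate 2. It was 6340 with limma-voom and sample weights, 6989 with no fold threshold, and 2614 to 5016 when 1 replicate was left out of the 60-library fit. With a replicate block, the 6 libraries alone called 1 gene and the 60 libraries 3676. Same-numbered S2 and S1 libraries deviated from their stage means with correlations of -0.0176, 0.0441 and 0.298. With 3 libraries at each stage, these values cannot decide whether the numbers pair the libraries. The interaction count of 7 against the mean of the other lines was 17 without a filter and 1 to 532 with 1 replicate left out. The count of 1 against 3mlpa was 2 with median-of-ratios size factors and 1 to 471 with 1 replicate left out. With the S1 and S2 libraries of the compared lines alone, edgeR called 0 in both tests, where 4544 genes (mean of the other lines) and 5048 genes (3mlpa) reached an unadjusted p below 0.05. Of 193 called named genes, 73 were called again with the 6 libraries alone, and 186 with these less S1 replicate 2. In the 60-library fit 181 to 191 were called again with 1 replicate left out. No named gene changed sign in the alternatives run. Fits without S1 replicate 2 of the 6 or 15 libraries were chosen after seeing the data. Genes with few reads at a stage limit the size of their fold change.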

Other observations

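Cell wall and transport genes were more often lower than higher at S2. Of 196 genes of cell wall loosening and pectin, 39 were called lower and 22 higher, beside 14.4% and 14.9% of annotated genes, with a median log2 fold change of -0.19, and the lower calls were 22 without S1 replicate 1 and 24 without S1 replicate 3. Expansin EXPA15 (Glyma.19G024200), of a family that loosens growing walls, had 0.863, 0.849 and 0.782 CPM at S2, against 11.1, 3.44 and 15.2 CPM at S1 (-3.58 ± 0.42, adjusted p = 2.92e-08). The polygalacturonase gene Glyma.03G224600, whose family cuts pectin, had 188, 203 and 224 CPM at S2, against 630, 359 and 736 CPM at S1 (-1.49 ± 0.19). Of 179 amino acid, nitrate and peptide transport genes, 43 were lower and 21 higher (median -0.52). The permease gene AAP7 (Glyma.18G071700) had 4.35, 4.24 and 5.31 CPM at S2, against 23.1, 11.4 and 25.5 CPM at S1 (-2.10 ± 0.24), while the cationic transporter gene CAT1 (Glyma.09G118900) had 3.98, 3.70 and 3.15 CPM at S2, against 0, 0.491 and 0.0404 CPM at S1. The fitted log2 value of Glyma.09G118900 was 4.4, 7.40 without S1 replicate 2 and 3.74 without S1 replicate 1. Auxin genes were higher in 22 of 192 and lower in 42, and the response factor ARF10 (Glyma.13G325200, -1.37 ± 0.17) was among the lower ones. The lower auxin calls also included MtN21-like transporter genes matched to auxin-induced protein 5NG4, Glyma.08G182500 (-3.54 ± 0.42) and Glyma.15G049900 (-2.56 ± 0.34). Both are also members of the amino acid, nitrate and peptide transport list. The higher auxin calls were 14 without S1 replicate 1, and the lower ones 26 without S1 replicate 3.

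Albumin and lipid transfer genes were lower in 21 of 76 and higher in 10, or lower in 13 and higher in 6 without S1 replicate 3. LTP1 (Glyma.01G132600) had 10.0, 9.88 and 10.6 CPM at S2, against 46.2, 25 and 52.7 CPM at S1 (-2.02 ± 0.24). Among 43 phosphate genes, 6 were higher and 7 lower, near the 14.9% and 14.4% of annotated genes. The higher calls were 11 without S1 replicate 2 and 3 without S1 replicate 1. The acid phosphatase gene PAP10 (Glyma.12G221100) had 131, 105 and 108 CPM at S2, against 21.3, 43.1 and 19.6 CPM at S1 (2.04 ± 0.24). Its relative PAP26 (Glyma.13G161900) had 0.300, 0.679 and 0.465 CPM at S2, against 7.01, 1.17 and 7.56 CPM at S1 (-3.43 ± 0.58). Homeobox genes were called higher in 53 of 209 (34 without S1 replicate 1 and 35 without S1 replicate 3) and lower in 34 (20 without S1 replicate 3), and WOX1 (Glyma.07G219400), an organ growth factor, was lower with -1.67 ± 0.21.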
